A study of Homo sapiens with 9 samples.

Results

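The chromatin regions described here had at most 0.7 times the control's ATAC-seq reads in neuroblastoma cells given 1 antisense oligonucleotide (ASO) against the long non-coding RNA NESPR, ASO2. With the other, ASO10, they stayed within a set window around the control, most of them slightly below it. They are 1313 of 148797 regions in the table. A region was a member when its mean over 9 libraries was at least 2 CPM (counts divided by the library total, times 1000000) and every ASO2 library lay below every control library. Its ASO2 mean had to be at most 0.7 times the control mean, and its ASO10 mean between 0.8 and 1.25 times that mean. Of all regions, 72424 reached the level limit, 7164 of these (9.89%) had all ASO2 libraries below all control libraries, and 3800 also met the ratio limit. The ASO10 window then removed 2408 regions that were lower and 79 that were higher under ASO10.

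The cells were SK-N-BE(2)c, an established human neuroblastoma line with an amplified MYCN gene. All 3 groups were transfected with 100 nM oligonucleotide by lipofectamine 2000 and collected 48 h later: ASO2, ASO10, or NCA, the negative control oligonucleotide, with 3 libraries each. An untransfected group is not analysed here, so transfection is common to all groups. The labels number the libraries but do not say whether they came from separate cultures, and the spread between them may be technical. The groups rest on 1 cell line.

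In ATAC-seq the transposase Tn5 cuts DNA that is free of nucleosomes and leaves sequencing adapters behind. A region with many reads is therefore often an open promoter, enhancer or other regulatory stretch. ASOs pair with an RNA in the cell, and ASOs of the gapmer type recruit RNase H to cut it. Different ASOs against 1 RNA are compared because each can also act on other RNAs. NESPR is a long non-coding RNA of adrenergic neuroblastoma cells, the cell state driven by factors such as HAND2 and GATA3.

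As a check of the cell type, regions within 1 kb of the ends of adrenergic marker genes were read in NCA. Such a region was found for 9 of 10 genes, with a median of 17.4 CPM over the list. PHOX2A reached 36.4, HAND2 23.4 and DBH 18.0 CPM, and MYCN, on its amplified DNA, 4995. TH, which makes the first enzyme of catecholamine synthesis, had no region there. Of 6 mesenchymal markers 3 had a region (SNAI2 27.8, VIM 25.2 and FOSL1 3.51 CPM), and PRRX1, RUNX1 and CD44 had none. No immune, epithelial or endothelial marker exceeded 5.19 CPM.

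Among the members were gene starts, and the DNA just upstream of 5 of them is shown because it lay within or at the edge of a member region. Each run is the 250 bases before the RefSeq start of the gene (GRCh38.p14, strand of the gene, 5′ to 3′). Capitals mark matches on either strand to the GC box (GGGCGG), the CCAAT box (CCAAT), the E-box CACGTG and the ETS core (CCGGAAG); neighbouring GC boxes can share a base. CTBP1 encodes a transcriptional corepressor (chr4:1249131-1249380, minus strand). RPS28 encodes a protein of the small ribosomal subunit (chr19:8321246-8321495, plus strand). DCTN2 encodes a subunit of dynactin, the cofactor of the dynein motor (chr12:57547193-57547442, minus strand). ELOB encodes elongin B, a part of ubiquitin ligases (chr16:2777281-2777530, minus strand). YAP1 encodes the coactivator at the end of the Hippo pathway (chr11:102110197-102110446, plus strand).
CTBP1: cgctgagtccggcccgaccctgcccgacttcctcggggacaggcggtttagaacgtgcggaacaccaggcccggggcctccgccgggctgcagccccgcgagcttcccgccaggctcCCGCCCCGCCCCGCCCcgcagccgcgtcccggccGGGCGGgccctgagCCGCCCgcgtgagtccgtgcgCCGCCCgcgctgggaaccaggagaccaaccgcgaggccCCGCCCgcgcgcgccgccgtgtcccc
RPS28: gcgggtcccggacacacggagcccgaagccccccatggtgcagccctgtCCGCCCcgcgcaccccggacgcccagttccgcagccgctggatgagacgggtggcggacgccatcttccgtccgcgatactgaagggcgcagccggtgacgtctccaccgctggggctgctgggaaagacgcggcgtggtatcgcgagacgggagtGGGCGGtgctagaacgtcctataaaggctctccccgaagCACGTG
DCTN2: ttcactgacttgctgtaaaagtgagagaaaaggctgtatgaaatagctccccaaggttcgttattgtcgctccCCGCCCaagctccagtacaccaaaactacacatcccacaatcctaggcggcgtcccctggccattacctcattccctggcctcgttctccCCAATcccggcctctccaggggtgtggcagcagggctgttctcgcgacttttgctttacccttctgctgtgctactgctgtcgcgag
ELOB: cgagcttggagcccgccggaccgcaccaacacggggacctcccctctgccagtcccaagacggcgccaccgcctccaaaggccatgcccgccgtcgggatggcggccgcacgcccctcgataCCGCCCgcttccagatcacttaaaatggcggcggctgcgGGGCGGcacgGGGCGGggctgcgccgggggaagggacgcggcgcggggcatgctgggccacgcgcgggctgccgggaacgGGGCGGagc
YAP1: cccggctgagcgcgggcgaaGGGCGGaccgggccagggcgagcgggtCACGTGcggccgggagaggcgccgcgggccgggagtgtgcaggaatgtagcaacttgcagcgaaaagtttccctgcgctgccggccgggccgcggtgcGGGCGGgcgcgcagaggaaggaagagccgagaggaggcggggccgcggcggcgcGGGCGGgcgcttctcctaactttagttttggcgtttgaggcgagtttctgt
The CTBP1 stretch had 7 GC boxes and the ELOB stretch 4. The YAP1 stretch had 3 GC boxes and 1 E-box, and the RPS28 stretch 2 GC boxes and 1 E-box. The DCTN2 stretch had 1 GC box and 1 CCAAT box, and at 55.2% G and C it was the poorest in these bases of the 5, against 80.4% for CTBP1.

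At the CTBP1 start (chr4:1247862-1249878), NCA had 26.8, 27.3 and 28.7 CPM, ASO2 20.7, 21.0 and 15.0 CPM, and ASO10 27.8, 27.1 and 27.6 CPM. The ASO10 libraries lay among the NCA libraries here, and all ASO2 libraries lay below both groups. At the RPS28 start (chr19:8320757-8322167), which is also a start of NDUFA7, a gene for a subunit of respiratory complex I, NCA had 22.2, 20.4 and 20.8 CPM. ASO2 had 11.1, 15.1 and 12.7 CPM there, and ASO10 22.2, 18.6 and 19.9 CPM. At the DCTN2 start (chr12:57546579-57547431) the values were 22.8, 21.2 and 20.7 CPM in NCA, 14.1, 13.3 and 14.9 CPM in ASO2, and 19.99, 21.0 and 21.0 CPM in ASO10. At both starts the ASO10 libraries overlapped NCA and stayed above every ASO2 library. At the YAP1 start (chr11:102109875-102111218), NCA had 8.04, 11.1 and 13.2 CPM, ASO2 4.94, 6.39 and 6.30 CPM, and ASO10 9.37, 11 and 8.57 CPM. The NCA libraries differed from each other more here than at the CTBP1, RPS28 and DCTN2 starts. The ELOB start (chr16:2776668-2778190) averaged 17.9 CPM in NCA, 11.4 CPM in ASO2 and 18.5 CPM in ASO10.

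Over all 1313 members the median level in the NCA libraries was 4.34, 4.44 and 4.50 CPM. In ASO2 it was 2.61, 2.47 and 2.74 CPM, and in ASO10 4.23, 4.22 and 4.34 CPM. A median member thus had 34, 36 and 40 counts in the NCA libraries and 19, 24 and 30 in the ASO2 libraries. These levels were fixed by the choice of members and are a description only. The ratio of the ASO2 mean to the NCA mean ran from 0.287 to the limit, with a median of 0.615 and quartiles of 0.553 and 0.661. The 3 members nearest the limit had ratios of 0.69961 to 0.69989, and the 3 nearest regions outside it 0.70002 to 0.70017. At the level limit the nearest members had a mean of 2.00002 to 2.0029 CPM and the nearest regions outside 1.9988 to 1.9998 CPM. Beyond the level limit 1217 regions met the rest of the rule, and beyond the ratio limit 2457, so members are a slice of a continuum.

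**Figure D1:**
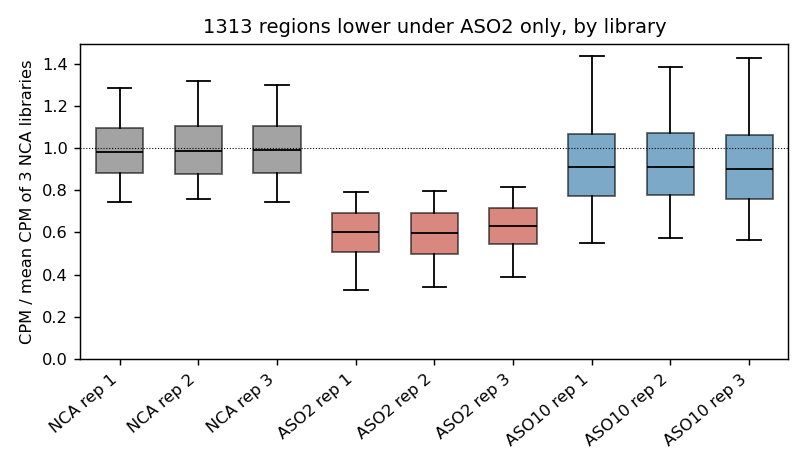
CPM of the 1313 members in each library divided by the mean of the 3 NCA libraries; boxes show the quartiles with the median as a line, and whiskers the 5th and 95th percentiles. ASO2 medians lie at 0.599 to 0.630 and ASO10 medians at 0.903 to 0.909, with the order of ASO2 and NCA set by the choice of members.

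Inside the allowed window, ASO10 was more often slightly below NCA than above it. The median ratio of ASO10 to NCA was 0.910, and 977 members (74.4%) had a ratio under 1. Among all 45529 regions at the level limit whose ASO10 mean lay in the window, the median was 1.004 and 49.0% were under 1. NCA is the denominator for both oligonucleotides. The ASO10 libraries overlapped the NCA libraries in 1262 members (96.1%). All lay below NCA in 47 members (3.58%, against 8.97% of all regions at the level limit) and above it in 4 (0.305%, against 9.53%), counts that the window holds down. All ASO10 libraries lay above all ASO2 libraries in 684 members (52.1%), where 9.28% of regions at the level limit had this order. The limits on both ratios to NCA favour this order, so nothing is read from the count. In the other members at least 1 ASO10 library was at or below an ASO2 library. The gap between ASO2 and NCA was narrow in many members: in 430 (32.7%) the lowest NCA library was less than 1.1 times the highest ASO2 library, and in 52 it was at least 1.5 times.

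Because the same libraries chose the members and gave these ratios, the rule was applied again to 6 libraries, leaving out 1 replicate number from each group, and the regions it chose were read in the 3 libraries left out. Without number 1 it chose 2481 regions, with a median ASO2 to NCA ratio of 0.611 in the libraries used and 0.859 in those left out. Without number 2 it chose 2509 regions, with ratios of 0.622 and 0.877. Without number 3 it chose 3060 regions, with ratios of 0.602 and 0.907. The loss in the libraries left out was thus a fraction of the one that chose the regions. With fewer libraries the order of groups is easier to meet, so each chosen set was larger than the set of members. The left-out ratios belong to those larger sets and do not measure the loss of the members themselves. Over all regions at the level limit the ratio in the same left-out libraries was 0.992, 1.037 and 0.991, above that of the chosen regions each time. The chosen regions were lower in ASO2 than in NCA in 63.6%, 63.5% and 58.9% of cases, against 50.9%, 46.3% and 50.9% of all regions. A ratio of at most 0.7 in the left-out pair was seen in 32.1%, 30.0% and 26.0%, against 18.6%, 18.8% and 16.2%. The 3 readings share libraries and are not independent of each other.

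The left-out ASO10 libraries were also low. Their median ratio to NCA in the chosen regions was 0.932, 0.961 and 0.947, against 0.998, 1.014 and 0.973 over all regions. ASO2 lay below ASO10 in 57.8%, 61.7% and 54.0% of the chosen regions, against 49.5%, 47.2% and 47.1% of all. This comparison between oligonucleotides does not use the left-out NCA library, and its median ratios were 0.918, 0.900 and 0.967, against 1.002, 1.024 and 1.030. Among the chosen regions of at least 10 CPM (198, 365 and 220 regions), the left-out ratio of ASO2 to NCA was 0.808, 0.922 and 0.863, against 0.979, 1.086 and 0.940 for all regions of that level.

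**Figure D2:**
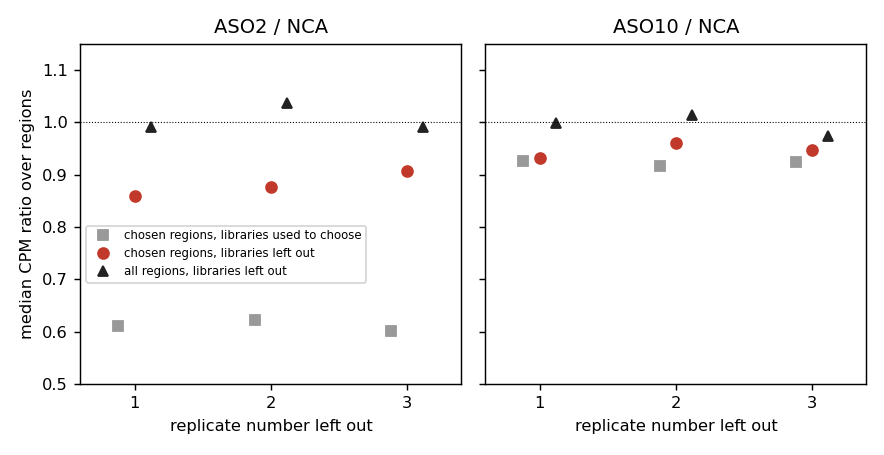
Median ratio of ASO2 (left) and ASO10 (right) to NCA for regions chosen from 6 libraries, read in those libraries (squares) and in the 3 left out (circles), beside all regions in the libraries left out (triangles). The ASO2 ratio moves from 0.602 to 0.622 in the libraries used to 0.859 to 0.907 in those left out.

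In the fit of all regions with edgeR's quasi-likelihood test (Benjamini-Hochberg adjusted p under 0.05), 208 of 1313 members (15.8%) were called lower under ASO2 than under NCA. Of all 119417 regions tested, 0.808% were called lower and 5.6% in either direction. Since the rule used this contrast, the count describes the members and supports nothing. Between ASO2 and ASO10, 94 members were called, all lower under ASO2, with a background of 0.682% lower and 3.23% in either direction, and 73 were called in both contrasts. The limits on both ratios to NCA fix this direction too. No background was computed for the 73, and nothing is read from either count. No member was called between ASO10 and NCA, where 1.09% of all regions were. By the same test 5 members (0.381%) had an unadjusted p under 0.05, against 10.6% of all regions tested. limma-voom and DESeq2 called 0 (DESeq2 on the 567 members it gave an adjusted p). The window on ASO10 removes regions that differ in this contrast, so these counts restate the rule. Calls followed the read level. Against NCA, 2.57% of the members of 2 to 3 CPM were called, 7.42% of those of 3 to 5 and 21.8% of those of 5 to 10. At 10 to 20 CPM 77.0% of members were called, and at 20 to 50 CPM all 19. The share called among all regions of each level was not computed. The rule used this contrast, so nothing is read from the rise. The median difference of the members was -0.68 on the log2 scale against NCA (median SE 0.35), -0.62 against ASO10, and -0.11 between ASO10 and NCA. Most members were weak regions that did not pass this test on their own.

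Members were weaker and narrower than other regions at the level limit. Their median width was 640 bases, against 704, and 15.7% were wider than 1000 bases, against 26.6%. Of the regions of 2 to 3 CPM 2.42% were members, of those of 10 to 20 CPM 0.919%, and of those of 20 to 50 CPM 0.272%. The median SE of the log2 difference between ASO2 and NCA was 0.35 for members and 0.29 for all regions at the level limit, and the part of this scatter in the shares was not tested.

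By position, 164 members (12.5%) lay within 1 kb of an end of a protein-coding gene. When the rule was applied without 1 library this share was 10.3% to 15.6%. Gene starts came from the RefSeq promoter table, with chromosome 8 not used here. Of the 1220 members on the other chromosomes 155 lay at a gene end and 114 at a listed start. Starts were thus less common among these members (9.34%) than among regions at the level limit on the same chromosomes (16.0%). In a gene body away from its ends lay 497 (37.9%), between genes 639 (48.7%), and 13 on unplaced sequence. Among all regions at the level limit 17.9% lay at gene ends, 37.7% in gene bodies and 43.3% between genes. Regions that met the same limits in both ASOs numbered 1068, with 6.55% at gene ends. The mirror set, 3696 regions that were higher under ASO2 only, had 1.87% there. The share at gene ends was lower among members than among all regions, and members also had a lower read level. Within a level the order was the reverse for weak regions: 6.42% of the members of 2 to 3 CPM were at gene ends, against 4.65% of all regions of that level. At 3 to 5 CPM the shares were 9.09% and 6.46%, and at 5 to 10 CPM 19.5% and 13.7%. At 10 to 20 CPM members had 31.0% and all regions 35.7%, and at 20 to 50 CPM 26.3% and 60.4%. None of these differences was tested.

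**Figure D3:**
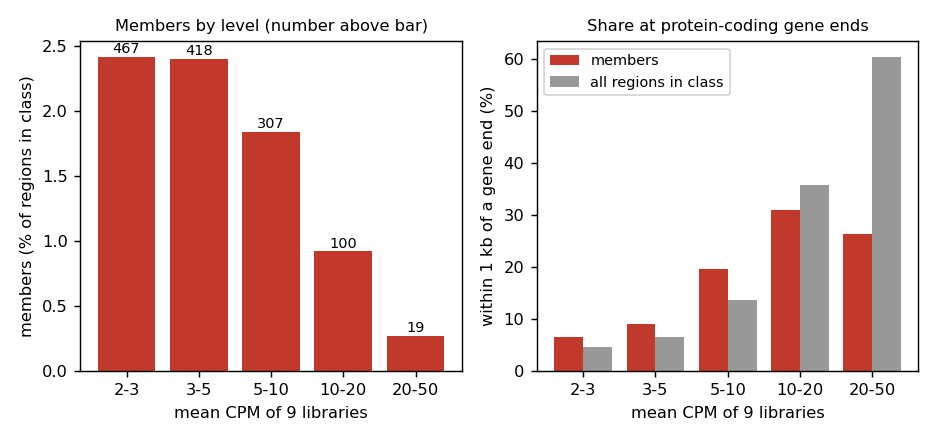
Left, members as a percentage of regions in each class of mean CPM, with the number of members above the bar. Right, percentage within 1 kb of an end of a protein-coding gene for members and for all regions in the class; members are higher in the 3 classes below 10 CPM and lower in the 2 above.

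The members at gene ends with the highest NCA level belonged to genes of varied function. Besides CTBP1, RPS28 and DCTN2 they were NEGR1, a neuronal adhesion protein (35.6 ± 9.71 CPM in NCA, SD, n = 3, and 24.6 ± 2.58 in ASO2), and CSPP1, a protein of centrosomes and spindles (27.0 ± 0.993 and 18.2 ± 2.30). The region at SUMF2 and CCT6A, the latter a subunit of a cytosolic chaperonin, had 26.0 ± 2.17 CPM in NCA and 17.3 ± 2.26 in ASO2. The others were ANKLE2, a nuclear envelope protein, KICS2, a part of an mTORC1 regulator, GOLPH3 of the Golgi, and AUP1 with HTRA2, a mitochondrial protease. NCA averaged 21.2 to 25.6 CPM at these 4, and the ratio of ASO2 to NCA was 0.663 to 0.699. All 10 regions averaged 17.5 to 32.1 CPM in ASO10.

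Promoter windows of RefSeq (250 bases before to 50 after a start, GRCh38.p14) overlapped members by at least 150 bases in 98 cases, for 86 genes and 77 members, chromosome 8 not used here. The members' windows were rich in G and C, with a median of 71.0%, against 66.7% for the 13032 windows in regions at the level limit and 62.3% for all 22199 windows used. Their median count of CpG was 31.5, against 27.0 and 21.0. A GC box was found in 74.5% of member windows, 74.3% of those at the level limit and 56.3% of all. A CCAAT box was in 18.4%, 36.4% and 34.7% in the same order, an E-box CACGTG in 15.3%, 10.3% and 8.34%, and an ETS core in 23.5%, 19.3% and 12.8%. CCAAT boxes were less frequent in windows richer in G and C: over 4 classes of GC content their share fell from 48.4% to 40.3%, 33.1% and 22.8% in windows at the level limit. Member windows had 22.2%, 33.3%, 17.9% and 10.8% in these classes, with 18, 15, 28 and 37 windows. Across the same classes the share of windows that were in members was 0.533%, 0.454%, 0.871% and 1.18%. The median ASO2 to NCA ratio of all windows at the level limit was 0.982, 0.968, 0.963 and 0.948, while that of ASO10 was 1.034, 1.055, 1.068 and 1.072. GC content thus moved with the ASO2 ratio at promoters, and its part in the choice of members was not tested.

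Some of the strongest members were the last region of a chromosome. At chr12:10010-10619, the first region of chromosome 12, 56.1 kb from IQSEC3, NCA had 45.2, 46.6 and 38.9 CPM, ASO2 19.1, 26.6 and 23.8 CPM, and ASO10 43.0, 36.5 and 40.6 CPM. At chr5:10021-11775 NCA had 104, 99.55 and 100.04 CPM, ASO2 42.6, 74.99 and 83.0 CPM, and ASO10 107, 94.0 and 97.2 CPM. In both, ASO2 replicate 1, the library with the lowest total, was lowest, and the other two ASO2 libraries were also below all NCA and ASO10 libraries. At chrX:156030170-156030743, 17.2 kb from IL9R, NCA had 50.4, 50.5 and 53.1 CPM, ASO2 22.6, 37.1 and 33.4 CPM, and ASO10 50.04, 44.6 and 45.6 CPM. The last region of chromosome 12 (chr12:133264766-133265399) averaged 23.2 ± 1.61 CPM in NCA, 13.3 ± 3.78 in ASO2 and 23.6 ± 4.0 in ASO10. The last region of chromosome 22 (chr22:50807692-50808465), 24.1 kb from RABL2B, averaged 29.0 ± 1.69, 15.8 ± 4.10 and 25.7 ± 4.14 CPM. Human chromosomes end in telomere repeats, and the DNA next to them is shared in near copies between chromosomes, so reads from different ends cannot be told apart reliably. How reads with several matches were treated is not given in the sources used here.

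The outermost region on each side of each chromosome was therefore listed, a choice made after seeing members there. Of 38 such regions at the level limit 10 were members (26.3%), against 1.81% of all regions at that limit. Over the 38 the median ratio to NCA was 0.796 for ASO2 and 0.954 for ASO10, with 30 lower under ASO2 and 21 lower under ASO10. Their summed level was 638, 655 and 608 CPM in NCA, 407, 487 and 490 CPM in ASO2, and 644, 566 and 609 CPM in ASO10. The ASO2 sums lay below all other libraries, and ASO10 overlapped NCA. The 10 members are low under ASO2 by the rule. Over the 28 regions that were not members the median ratio was 0.848 for ASO2 and 1.016 for ASO10, with 20 (71.4%) lower under ASO2 and 13 under ASO10. Their sums were 317, 330.2 and 291 CPM in NCA, 260.0 to 269 CPM in ASO2, and 319, 290.3 and 301 CPM in ASO10, again without overlap of ASO2 and the other groups. Without the regions of chromosome 5 the sums over all outermost regions were 529, 544 and 502 CPM in NCA, 356, 404 and 399 CPM in ASO2, and 527, 463 and 506 CPM in ASO10, in the same order. Of the 38, 10 began within the first 11 kb of their chromosome: 4 were members (chromosomes 1, 5, 10 and 12), 9 were lower under ASO2, and the median ratio was 0.655 for ASO2 and 0.925 for ASO10. Of the 6 that were not members, the region of chromosome 16 was not lower (13.7 ± 0.282 CPM in NCA and 14.8 ± 3.12 in ASO2), and that of chromosome 7 had a ratio of 0.602 with overlapping libraries. Further in, the share of members was 1.75% within 20 kb of the outermost region, 3.68% at 20 to 100 kb, 2.58% at 100 to 1000 kb, 2.37% at 1000 to 5000 kb and 1.71% beyond. In the same classes 64.9%, 73.6%, 68.4%, 61.4% and 50.4% of regions were lower under ASO2, with median ratios of 0.947, 0.903, 0.911, 0.935 and 0.998. Low ASO2 values thus reached well beyond the outermost regions, and the share lower among the 28 was near that of regions up to 1000 kb away. No test was made of this pattern.

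**Figure D4:**
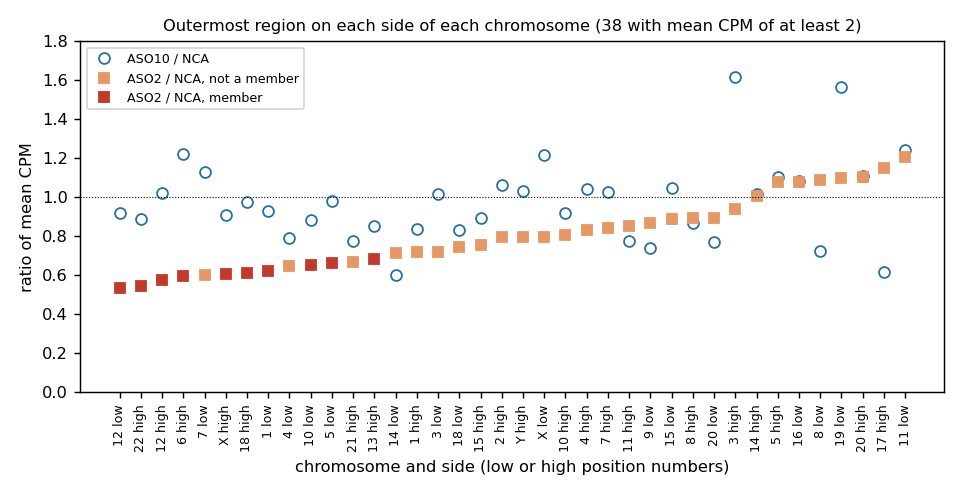
Ratio of the mean CPM of ASO2 (squares, dark for members) and ASO10 (open circles) to NCA in the 38 outermost regions, ordered by the ASO2 ratio. ASO2 is below 1 in 30 of 38 and ASO10 in 21 of 38.

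The member with the most reads lay at chr2:16197622-16199061, 251 kb from MYCN and between genes. NCA had 2677, 2482 and 2753 CPM, ASO2 1735, 1790 and 1758 CPM, and ASO10 2426, 2408 and 2366 CPM. Its level, beside a member median of 4.35 CPM, reflects DNA copies as well as openness, which cannot be told apart in these counts. A strong member between genes elsewhere lay 16.0 kb from RPRD1B, a regulator of RNA polymerase II, at chr20:38108374-38110408. NCA averaged 37.1 ± 3.75 CPM there, ASO2 24.4 ± 1.8 and ASO10 30.4 ± 2.39. At this region and the one 251 kb from MYCN, every ASO10 library also lay below every NCA library. The ASO10 to NCA ratio was 0.818 near RPRD1B and 0.910 near MYCN. This order was seen in 47 members (3.58%), and in both regions ASO2 lay below ASO10.

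The members with the lowest ratios were weak regions, with NCA means of 2.61 to 4.23 CPM. Inside VIPR2, the gene of a receptor for vasoactive intestinal peptide, 4.04 kb from its start (chr7:159101240-159101591), NCA had 2.30, 2.84 and 2.92 CPM, ASO2 0.411, 1.03 and 0.913 CPM, and ASO10 3.88, 3.78 and 1.61 CPM. Inside BMPR2, a type II receptor for bone morphogenetic proteins (chr2:202490868-202491350), NCA had 2.04, 2.22 and 3.82 CPM, ASO2 0.411, 1.03 and 1.1 CPM, and ASO10 1.94, 2.33 and 3.35 CPM. In ASO2 replicate 1 each of these values stands for 3 counts, so the ratios of 0.292 and 0.314 are imprecise. The other 8 lay 17.9 kb from DDX1, an RNA helicase gene near MYCN, inside TBXAS1 and ADGRL3, 1.51 kb from KREMEN2, which encodes a receptor of the Wnt inhibitor Dickkopf, 17.7 kb from PDE5A, 24.8 kb from LOC124902201, 146 kb from PKN2 and 1232 kb from TMEM121. Their ratios ran from 0.287 to 0.370.

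Better counted are the 121 members of at least 10 CPM. Ordered after their values were seen by the ratio of ASO2 to ASO10, the first lay between genes at chr17:48014395-48015109, 11.1 kb from COPZ2, a coatomer subunit gene. NCA had 15.7, 12.1 and 12.9 CPM, ASO2 6.99, 4.12 and 6.21 CPM, and ASO10 15.4, 15.7 and 11.5 CPM. ASO2 did not overlap either group, and ASO10 overlapped NCA. Its neighbours differed: at chr17:48011497-48012960 the means were 18.4 CPM in NCA, 21.6 in ASO2 and 25.2 in ASO10, at chr17:48018419-48018578 3.78, 3.25 and 2.95 CPM, and at chr17:48023383-48025629, 0.538 kb from COPZ2, 38.4, 41.1 and 48.4 CPM. Of the 14 regions at the level limit in this stretch 7 were lower under ASO2, and 2 were members, the other 14.4 kb from CDK5RAP3 with 4.81 ± 1.38 CPM in NCA and 2.03 ± 0.966 in ASO2. Inside CSPG4, which encodes the NG2 proteoglycan, NCA averaged 13.8 ± 3.55 CPM, ASO2 7.59 ± 0.779 and ASO10 13.5 ± 4.06. A region 146 kb from GRIN2B, an NMDA receptor subunit gene, averaged 37.0 ± 2.49 CPM in NCA, 24.6 ± 2.89 in ASO2 and 43.4 ± 2.08 in ASO10.

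**Figure D5:**
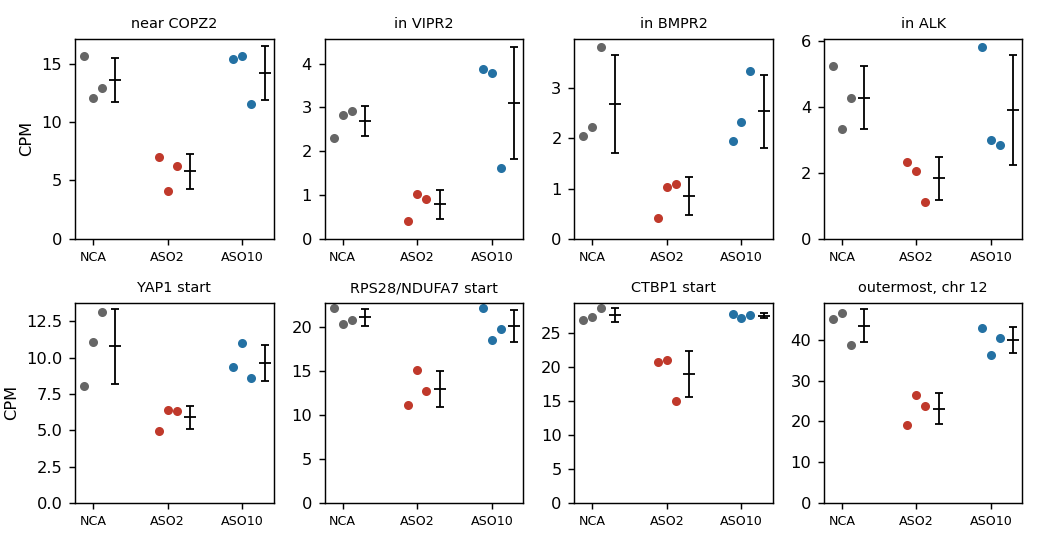
CPM of 8 members in each library (points) with the mean and SD of the 3 libraries of a group (bar at its right); axes start at 0. ASO2 libraries lie below all NCA libraries in each by the rule, and ASO10 libraries lie within or near the NCA range in most panels.

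Neighbouring genes were seldom shared. Of the members, 1069 had a protein-coding gene within 100 kb, 1003 genes in all, of which 943 had 1 member, 55 had 2, and 5 had 3 or more. These 5 are long genes with many regions: ASTN2, a neuronal migration gene, had 4 members of 66 regions at the level limit, ADARB2, of the RNA editing enzyme family, 3 of 14, DPP6, which encodes a partner of potassium channels, 3 of 65, MAD1L1 of the spindle checkpoint 3 of 34, and MSI2, an RNA-binding protein gene, 3 of 35. All 16 members lay inside the gene. The median ratio over all regions of the gene was 0.762 for ADARB2 and 0.893 to 0.956 for the other 4. In ASTN2 the strongest member (chr9:117183703-117184775) had 33.6, 27.9 and 36.8 CPM in NCA, 23.3, 19.2 and 24.9 CPM in ASO2, and 30.4, 26.8 and 22.3 CPM in ASO10. There an ASO10 library lay below 2 of the ASO2 libraries. In MSI2 the strongest member (chr17:57622908-57623993) had 29.1, 22.7 and 20.5 CPM in NCA, 12.5, 18.9 and 18.0 CPM in ASO2, and 19.99, 21.6 and 21.4 CPM in ASO10.

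Of all members, 35 stood in 11 runs of at least 3 members with gaps under 100 kb. Some runs lay near centromeres or on Y, where regions are dense. On chromosome 1, 4 of 56 regions between 123992804 and 124123637 and 3 of 33 between 124425897 and 124506597 were members. The nearest gene, LINC02798, lay 2530 to 3043 kb from these members. On Y, 4 of 12 regions between 10984424 and 11034095 were members, and on chromosome 13, 3 of 22 between 16355943 and 16415093. The regions in these 4 runs that were not members had median ratios of 0.878 to 0.952, and 10 to 40 of the regions in a run were lower under ASO2. Such DNA is repetitive, with the limit on reads that match several places given above for chromosome ends. The other 7 runs lay near genes: ADARB2, MAD1L1, PLXNA4, BICD2, CDK20, RXRA with COL5A1, and PRRT4 with IMPDH1 and HILPDA. In these the regions that were not members had median ratios of 0.608 in the ADARB2 run, which held 1 such region, 0.711 in the BICD2 run, 0.862 in the PRRT4 run and 0.890 in the RXRA and COL5A1 run. In the MAD1L1, CDK20 and PLXNA4 runs they had 1.007, 1.105 and 1.308, so the regions between members were low in some runs and not in others. Of the 35 members in runs, 1 was called lower against NCA, beside 15.8% of all members and 0.808% of all regions tested.

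Regions beside a member were slightly low too. Among regions at the level limit that were not members, those with a member less than 2 kb away (246) had a median ASO2 to NCA ratio of 0.916, and 65.9% were lower under ASO2. At 2 to 10 kb (961 regions) the ratio was 0.942, at 10 to 50 kb (4395) 0.940, and beyond 50 kb (64900) 0.998. The ASO10 ratio in the same classes was 0.971, 0.979, 0.986 and 0.993. Members made up 3.68% of the regions of Y (5 of 136), 2.46% of chromosome 22, 2.44% of chromosome 7, 2.37% of chromosome 15 and 2.33% of chromosome 16. They made up 1.21% of those of chromosome 4 and 0.772% of those of X, against 1.81% over all.

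In 11 gene lists each region was given to the closest protein-coding gene no more than 100 kb away, and 1.84% of all 57981 regions so placed were members. Of the adrenergic factors 3 of 176 regions were members (1.70%), near HAND2, TBX20 and TFAP2B, and of the catecholamine and vesicle genes 1 of 93, near CHGA, the gene of a granule protein. The member 1.25 kb from HAND2 (chr4:173531480-173531718) had 2.94, 2.96 and 2.59 CPM in NCA, 1.92, 1.65 and 1.46 CPM in ASO2, and 4.68, 1.89 and 2.48 CPM in ASO10. It is weak beside the 23.4 CPM at the HAND2 gene end, and its ASO10 libraries ranged across both groups. Over all 176 adrenergic regions the median ratio was 0.965, with 99 lower under ASO2. The TBX20 member (chr7:35289390-35289886), near the gene of a T-box factor, averaged 11.7 ± 2.92 CPM in NCA, 7.68 ± 0.659 in ASO2 and 10.6 ± 1.73 in ASO10.

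The list of 20 neuroblastoma genes had 6 members of 151 regions (3.97%), including regions near ALK, CHD5, RET and TERT. Inside ALK, the receptor kinase mutated in familial neuroblastoma, the member at chr2:29267635-29268104 had 5.23, 3.33 and 4.27 CPM in NCA, 2.33, 2.06 and 1.1 CPM in ASO2, and 5.83, 3.0 and 2.85 CPM in ASO10. Inside TERT, the catalytic subunit of telomerase, the member at chr5:1272629-1273448 had 3.57, 5.67 and 4.38 CPM in NCA, 2.19, 2.58 and 2.56 CPM in ASO2, and 3.77, 3.11 and 4.59 CPM in ASO10. The ASO10 libraries lay above all ASO2 libraries in both genes. Inside CHD5, a chromatin remodeller of 1p36, the means were 4.41 ± 1.18, 2.43 ± 0.567 and 3.58 ± 0.690 CPM. The median ratio of all 151 regions was 1.005, with 72 lower under ASO2.

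Mesenchymal factors had 4 members of 117 regions (3.42%), near YAP1, FOSL2, JUN and RUNX2, and AP-1 factors 2 of 43, the same FOSL2 and JUN regions. The FOSL2 member (chr2:28430732-28431328) had 2.68, 4.19 and 3.93 CPM in NCA, 2.33, 1.75 and 1.28 CPM in ASO2, and 1.94, 3.67 and 3.6 CPM in ASO10. Here 1 ASO10 library lay below an ASO2 library. Axon guidance genes had 8 members of 478 regions (1.67%), near EPHB1, EPHB2, PLXNA2, PLXNA4, SEMA6D, SLIT2 and UNC5B, while the median ratio over the list was 1.109. The SLIT2 member averaged 8.25 ± 2.01 CPM in NCA, 4.95 ± 0.751 in ASO2 and 7.475 ± 0.292 in ASO10. Cell cycle genes had 2 of 83, inside E2F2 and CCND1, p53 targets 2 of 60, near RRM2B and GADD45A, and the integrated stress response 1 of 75, near VLDLR. The BCL2 family had none of 57 regions and the interferon and nucleic acid sensing genes none of 30. With 0 to 8 members a list, these shares rest on few regions, and none was tested.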

How the data were processed

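Reads were tagmented genomic DNA, per the labels' protocols, although the labels give RNA as the molecule. The authors deposited whole-number counts in 1 set of 148797 regions for all 9 libraries, not normalized, with totals of 7293565 to 10948569. The submitters' processing notes name Bowtie2 2.2.6, MACS2 2.1.2, DESeq2 1.42.0 and hg38. Read filters, the Tn5 shift and the counted unit (reads, pairs or cuts) are not given in the sources used here. Counts of any 2 libraries of a group differed beyond sampling noise (chi-square over degrees of freedom 2.93 to 3.65).

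CPM is a count divided by the library total, times 1000000. The fit used edgeR 4.0.16 (R 4.3.3; quasi-likelihood, TMM, filterByExpr, all 9 libraries) and was tested on simulated data. Alternatives were other tools, scalings, filters and limits, and leaving out each library. Genes, strands and promoters came from RefSeq (GRCh38.p14); a motif or GC check of the regions themselves was not made. Text names the 10 members of lowest ratio, the 5 of highest NCA level, 10 at gene ends, up to 3 a gene list, the genes with at least 3 members, and runs. ELOB, the promoters shown, COPZ2, CDK5RAP3, CSPG4, GRIN2B and the chromosome ends were chosen after seeing values. The members, lists and tests were chosen with earlier results of these data known. Python 3.11.15, pandas 2.3.3 and matplotlib 3.10.9 were used.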

Additional observations from a re-analysis of the deposited data

How the results depend on the processing

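The number of members, 1313, followed the limits of the rule: 2188 with a mean CPM of at least 1 and 428 with 5, 562 with a ratio of at most 0.6 and 163 with 0.5, 584 with a narrower ASO10 window (9/10 to 10/9) and 3800 with none. With TMM sizes it was 1376, of which 1207 were members. Leaving out 1 library gave 1292 to 2659; fewer libraries make the order of groups easier to meet. Without ASO2 replicate 1, 2 or 3 the rule chose 2234, 2198 and 2659 regions.

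The 208 members called against NCA became 319 with loess offsets on abundance, and 105 to 180 without 1 library. All 6 fits that lacked an ASO2 or NCA library gave fewer than 208 divided by 1.5, with 105 without ASO2 replicate 1. Over all 119417 regions tested, calls lower under ASO2 than NCA numbered 965 in the main fit and 1521 with loess offsets. Without 1 library they numbered 513 to 855 of 128500 to 131521 regions. The 94 called against ASO10 became 35 to 92, and the 6 fits that lacked an ASO2 or ASO10 library gave 35 to 59. Over all regions, calls lower under ASO2 than ASO10 numbered 815 in the main fit and 292 to 878 without 1 library. Calls between ASO10 and NCA stayed at 0, except 1 with loess offsets, where 1148 of 119417 regions were called. DESeq2 gave an adjusted p for 567 members only. With a replicate block the counts were 180, 0 and 84. Over all 119417 regions that fit called 822 lower, 983 in either direction and 620 lower in the same order. Deviations of same-numbered libraries from their group means had r of -0.036 to 0.013, and those of other pairs -0.021 to 0.031. Many of the regions had few counts, so these values cannot tell whether the numbers mark shared cultures or days.

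The share of members at gene ends, 12.5%, was 22.8% within 5 kb, 20.2% with all genes, and 10.3% to 15.6% without 1 library. At gene starts only it was 8.68% of all members, with chromosome 8 starts not used here. Of the members on the other chromosomes it was 9.34%. The left-out ratio for number 3 was 0.866 with a limit of 5 CPM. Depth limits single regions: a median member had 19 to 40 counts a library.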
